A study of Mus musculus with 24 samples.

Results

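The libraries compared here were multipotent progenitors (MPP) and haematopoietic stem cells (HSC) from the bone marrow of 4 mice with Phf6 deleted, 1 library of each population per mouse. They are 8 of the 24 libraries of the study, chosen by their labels as MPP or HSC with Phf6 deleted, and every gene was used. The study also holds the same populations from 4 control mice, 1 in each of 4 litters with a deleted mouse, and a further progenitor population, HPC-1, prepared with a different kit and not used here. HSC and MPP libraries shared 1 kit, SMART-Seq v4 amplification followed by Nextera XT. The strain is written as Phf6lox/Y;Tie2-creTg/+ for deleted and control mice alike: a floxed X-linked Phf6 and a Cre transgene under the Tie2 promoter, which is active in endothelial and haematopoietic cells. Controls are labelled as having Phf6 intact, whether they had Cre is not said, and no age is given. Marrow was depleted of cells bearing CD3, B220, GR1 or TER119 and sorted with antibodies against cKIT, SCA1, CD150 and CD48.

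HSC sit at the top of blood formation and renew themselves for life, while MPP keep every blood lineage open but have little capacity for self-renewal. In mouse marrow many HSC carry platelet-lineage transcripts such as Vwf, and the MPP stage is known for the gain of the receptor Flt3 and of early lymphoid transcripts. The Phf6 protein carries PHD-like zinc fingers and works on chromatin, and its human gene is a recurrent target of mutations in T-lineage leukaemia. The comparison asks how the transcript make-up changes from HSC to MPP when Phf6 is missing.

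Libraries held 12784013 to 21815852 counts and 14212 to 16479 detected genes. Values are given as CPM, the count of a gene scaled to a common library size with TMM factors, for mice 1 to 4 in that order. Log2 fold changes are MPP against HSC with their standard error (SE), and a gene is called when its Benjamini-Hochberg adjusted p in edgeR's quasi-likelihood test over all genes was below 0.05. On the first principal component, with 30.7% of the variance, HSC libraries lay at -101 to -8.17 and MPP libraries at 32.9 to 70.4. The libraries of mouse 3 held both extremes. On the second component, with 26.8% of the variance, mouse 3 lay at 63.5 (HSC) and 102 (MPP). The HSC library of mouse 4 lay at -63.2 and the rest at -33.8 to -12.4. The MPP library of mouse 3 carried 9.34% of its counts in its top 10 genes, against 3.49% to 5.08% in the other 7 libraries. Amplified cDNA does not keep the strand, so reads from overlapping genes cannot be told apart. In sorted bulk RNA, fewer cells that express a gene and less of its RNA per cell cannot be told apart either.

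Phf6 transcripts were at 36.3, 52.7, 53.7 and 78.7 CPM in the HSC of deleted mice 1 to 4 and at 48.1, 66.7, 48.9 and 54.5 CPM in their MPP. Its log2 fold change between the populations was -0.02 ± 0.26 (SE, edgeR adjusted p = 0.983). Control HSC held 188, 222, 246 and 225 CPM and control MPP 200, 176, 235 and 188 CPM, on library sizes scaled among the control libraries, so all 8 deleted libraries lay below all 8 control ones. The counts cover the whole gene without a split by exon, and the source of the remaining reads was not tested.

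Transcripts of the sort antigens were in part different. Slamf1, which encodes CD150, was at 45.2, 37.5, 8.95 and 51.9 CPM in HSC and at 3.39, 1.09, 0 and 0.396 CPM in MPP. No MPP library reached the lowest HSC library (log2 fold change -4.83 ± 0.94, edgeR adjusted p = 0.0336), and since CD150 was a sort antibody this describes the gate. Ly6a, which encodes SCA1, was at 189, 120, 162 and 219 CPM in HSC and at 424, 327, 612 and 633 CPM in MPP (1.53 ± 0.27, adjusted p = 0.0228). Slamf1 and Ly6a each passed in 3 of the 8 fits that left out 1 library, and limma-voom did not call Slamf1. Kit (755 ± 220 against 684 ± 155 CPM, SD, n = 4 each) and Cd48 (18.7 ± 7.06 against 24.4 ± 6.86 CPM) did not pass, at log2 fold changes of -0.14 ± 0.26 and 0.38 ± 0.36. Among genes taken as HSC markers to check the labels, a shorter set than the long-term HSC list described with the results, Slamf1 and Ctnnal1 fell from HSC to MPP and Hlf rose. Procr, Mecom, Fgd5, Hoxb5 and Mllt3 did not pass, at log2 fold changes from -0.86 for Hoxb5 to 0.86 for Procr.

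In all, 196 of 13887 tested genes were called, 89 higher in MPP (0.641%) and 107 lower (0.771%), or 1.41% together. All 196 had 4 MPP libraries outside the range of the 4 HSC libraries and moved the same way in 4 of 4 mice. By comparison, libraries did not overlap for 774 tested genes in the upward direction (5.57%) and 854 in the downward direction (6.15%). At least 4-fold changes made up 31 of the genes that rose and 49 of those that fell. The median log2 fold change of all tested genes was 0.02. With the mouse as a block, 116 genes were higher (0.835%) and 177 lower (1.27%), or 2.11% together, and 172 of the 196 passed. Without 1 library, 44 of the 196 passed in all 8 such fits. The counts of higher and lower genes were 27 and 44 without the HSC library of mouse 1, 21 and 33 without that of mouse 2, 34 and 45 without that of mouse 3, and 105 and 103 without that of mouse 4. They were 31 and 34, 43 and 45, 85 and 88, and 33 and 40 without the MPP library of mouse 1, 2, 3 and 4, respectively. With the mouse as a block and both libraries of a mouse left out, counts of higher and lower genes fell for 3 of the 4 mice. They were 26 and 45 without mouse 1, 5 and 8 without mouse 2, and 6 and 8 without mouse 4. Without mouse 3 they rose, to 229 higher (1.61%) and 293 lower (2.06%). The genes called without mouse 3 held 14 platelet, 16 long-term HSC, 29 mitosis and 15 replication genes that fell. They also held 11 lymphoid and 6 class II genes that rose, of the lists described in turn in what follows.

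The platelet genes had the lowest median of the 33 gene lists examined. Of 22 megakaryocyte and platelet genes, 20 were tested, 13 fell, none rose, and the median log2 fold change was -2.22. Among all tested genes 0.771% fell. Vwf, the platelet and endothelial adhesion protein von Willebrand factor (chromosome 6, 125552948 to 125686679 on GRCm38), was at 91.9, 119, 140 and 186 CPM in HSC and at 6.18, 9.05, 5.48 and 6.25 CPM in MPP. The lowest HSC library was thus 10 times or more above every MPP library, and the log2 fold change was -4.31 ± 0.30 (edgeR adjusted p = 0.000163). Itga2b, the integrin subunit CD41 (chromosome 11, 102453297 to 102469883), was at 314, 520, 541 and 510 CPM in HSC and at 34.1, 37.3, 21.7 and 39.6 CPM in MPP (-3.83 ± 0.28, adjusted p = 0.000163). Its partner in the fibrinogen receptor, the integrin subunit Itgb3, fell with it, from 49 ± 7.6 to 7.15 ± 2.73 CPM (-2.77 ± 0.33, adjusted p = 0.00366). Cavin2, a coat protein of caveolae, was at 97, 160, 92.8 and 80.4 CPM in HSC and at 1.47, 1.03, 0.192 and 0.44 CPM in MPP, a log2 fold change of -7.03 ± 0.53 (adjusted p = 0.000163). The MPP of all 4 mice were nearly without this transcript, with 58 counts in all 4 libraries against 7738 in HSC.

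Subunits of the platelet receptor for von Willebrand factor behaved alike. Gp1bb was at 39.8, 41.2, 85.9 and 19 CPM in HSC and at 0.101, 0.304, 0.0961 and 0 CPM in MPP, where the 4 libraries held 8 counts together (-8.53 ± 0.78, edgeR adjusted p = 0.000655). It overlaps Septin5 in the annotation. Gp5 was at 29.6, 48, 59.8 and 36.9 CPM in HSC and at 2.33, 3.22, 4.9 and 5.02 CPM in MPP (-3.50 ± 0.37, adjusted p = 0.00195). Treml1, a receptor of platelet granules, went from 34.4 ± 14.7 to 1.8 ± 0.635 CPM (-4.25 ± 0.43, adjusted p = 0.00136). These 7 platelet genes passed in all 8 fits that left out 1 library. The count of platelet genes that fell was 13 or 14 under other scalings, filters and tools, and 9 to 13 without 1 library. It was lowest without the HSC library of mouse 2. It fell to 5 and 6 with both libraries of mouse 2 or mouse 4 left out and the mouse as a block.

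GATA factors are regulators of megakaryocytes and bind sites with a GATA core, so the promoters of the platelet genes were searched for AGATAA or TGATAA on either strand, a search added after the data had been seen. RefSeq promoters (GRCm38.p6, 250 bases before to 50 after the start) were found for 17 of the 22 genes, and 7 of these 17 held such a motif (41.2%, exact 95% interval 18.4% to 67.1%, counting error only). In all 32851 promoters of the table the share was 18.6%, and among promoters of tested genes it was 10.8%. Gp5 and Gp1ba, chosen for display because both hold 2 matches within the 150 bases before the start, are shown in the direction of transcription with the matches in capitals (Gp5 on the minus strand, chr16:30310782-30310931, and Gp1ba on the plus strand, chr11:70638972-70639121).
Gp5: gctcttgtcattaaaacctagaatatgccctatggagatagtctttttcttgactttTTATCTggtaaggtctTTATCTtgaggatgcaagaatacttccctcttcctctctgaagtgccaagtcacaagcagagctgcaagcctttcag
Gp1ba: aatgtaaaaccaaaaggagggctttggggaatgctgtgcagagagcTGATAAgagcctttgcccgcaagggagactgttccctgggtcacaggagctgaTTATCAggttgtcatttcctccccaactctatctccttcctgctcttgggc
A match is only a run of letters and shows no binding. Gp1ba, a further subunit of the same receptor, fell from 28.4 ± 7.09 to 5.98 ± 2.01 CPM (-2.24 ± 0.35, edgeR adjusted p = 0.0132, past the threshold in 5 of the 8 fits without 1 library).

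Gata1, Gfi1b, Gata2 and Epor, each with a role in the megakaryocyte or red cell lineage, fell, while most members of the lists that hold them did not pass. Gata1, the zinc-finger factor of both lineages (chromosome X, 7959260 to 7976663), was at 48.6, 103, 136 and 72.9 CPM in HSC and at 14.5, 11.7, 5.77 and 8.23 CPM in MPP (-3.16 ± 0.39, edgeR adjusted p = 0.00466). Gfi1b, a repressor needed for platelets and red cells, was at 158, 175, 262 and 135 CPM in HSC and at 50, 44.1, 28.5 and 22.9 CPM in MPP (-2.33 ± 0.31, adjusted p = 0.00706). Both passed in all 8 fits without 1 library. Gata2, a stem and mast cell factor, showed a smaller change, from 403 ± 43 to 209 ± 23.6 CPM (-0.95 ± 0.18, adjusted p = 0.0308), and passed in 2 of the 8 fits. Epor, the erythropoietin receptor, fell from 49.4 ± 2.43 to 8.11 ± 5.61 CPM (-2.60 ± 0.50, adjusted p = 0.0316) and also passed in 2 of the 8. Gata1 and Epor were the only members called among 17 tested erythroid genes, whose median was 0.05. A set of 12 basophil and mast cell markers, Gata2 included, summed to 440 to 587 CPM in HSC and 204 to 342 CPM in MPP, with Cma1, Mcpt4 and Tpsb2 at 0 in all 8 libraries. Gata2 itself was at 364 to 442 CPM in HSC and 182 to 239 CPM in MPP, and so made up most of each sum. The sums thus cannot show a part of such cells in the change of Gata2, which was not tested.

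**Figure D1:**
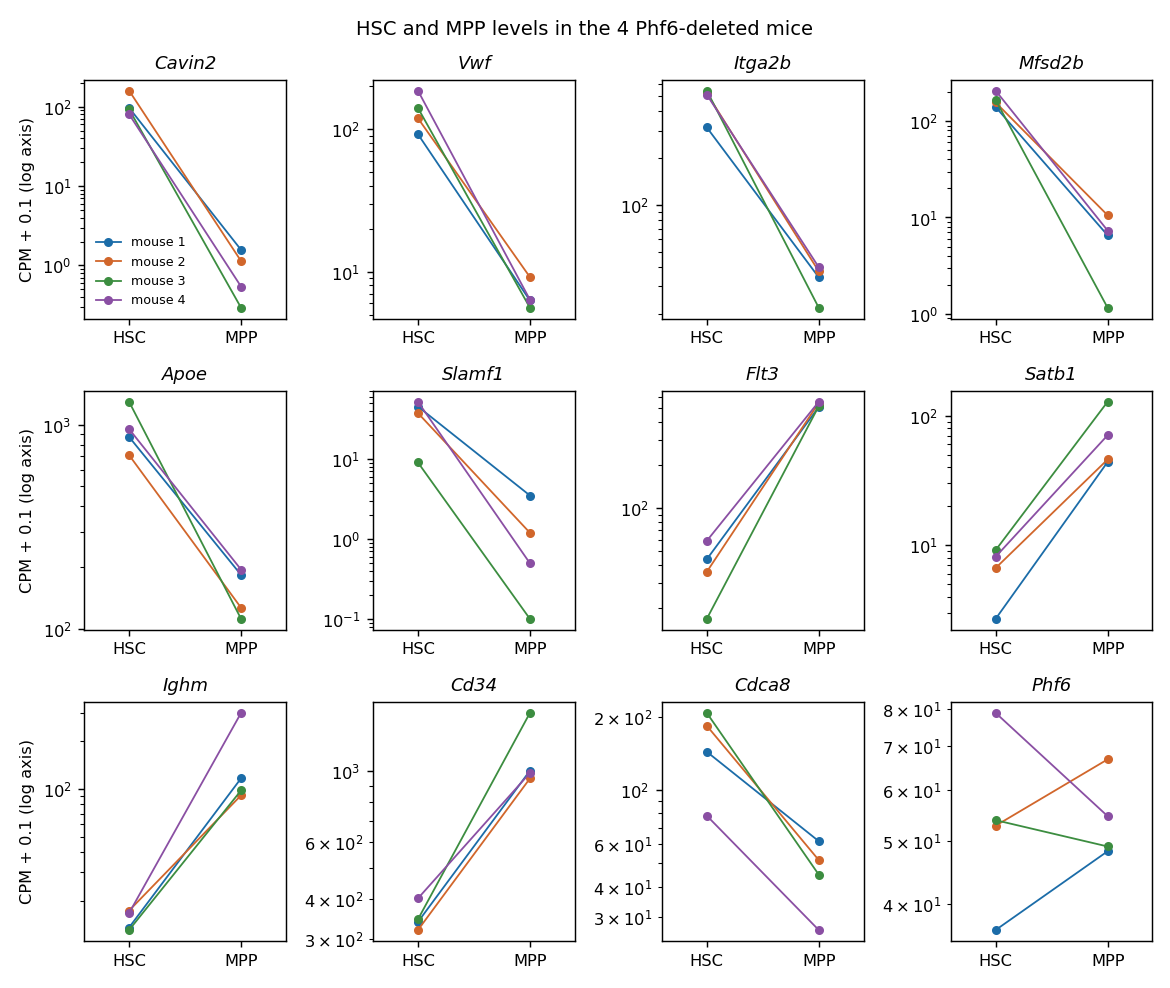
Levels of 12 genes in HSC and MPP of the 4 Phf6-deleted mice, as CPM + 0.1 on a log axis, with a line joining the libraries of 1 mouse. Cavin2, Vwf, Itga2b, Mfsd2b, Apoe, Slamf1 and Cdca8 drop in every mouse, Flt3, Satb1, Ighm and Cd34 climb in every mouse, and the lines of Phf6 cross.

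Genes known from long-term HSC fell in part. All 36 members of that list were tested, of which 11 fell, 1 rose, and the median was -0.85. Of all tested genes 0.771% fell and 0.641% rose. Clca3a1, an accessory protein of chloride channels, was at 39.3, 32.5, 38.4 and 71.5 CPM in HSC and at 4.3, 5.16, 5.29 and 8.94 CPM in MPP (-2.93 ± 0.37, edgeR adjusted p = 0.00466). Ctnnal1, the HSC marker alpha-catulin, was at 60.9, 92.6, 110 and 57.4 CPM in HSC and at 15.9, 19.6, 8.07 and 12 CPM in MPP (-2.52 ± 0.34, adjusted p = 0.00706). Nupr1, a small stress-induced nuclear protein, dropped from 18 ± 2.72 to 2.28 ± 0.906 CPM (-2.97 ± 0.41, adjusted p = 0.00728), and the cation channel Trpc6 from 118 ± 22.1 to 43.6 ± 6.21 CPM (-1.43 ± 0.22, adjusted p = 0.0112). All 4 passed in each fit without 1 library. The member that rose was Hlf, a bZIP factor that maintains HSC, at 209, 270, 214 and 391 CPM in HSC and 648, 874, 1175 and 741 CPM in MPP (1.66 ± 0.27, adjusted p = 0.0145). It passed in 5 of the 8 fits without 1 library, and failed without the HSC library of mouse 1, 2 or 3. Procr, the HSC surface receptor for protein C, was at 89.4 ± 23.4 CPM in HSC and 162 ± 15.1 CPM in MPP and did not pass (0.86 ± 0.22, adjusted p = 0.0893). The count of fallen members was 7 without any 1 of the HSC libraries of mice 1, 2 and 3 or the MPP libraries of mice 1 and 2, and 14 with the mouse as a block.

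Several genes outside these lists were among those with the lowest p or the widest drop. Apoe, the lipid carrier apolipoprotein E, was at 872, 710, 1296 and 953 CPM in HSC and at 184, 127, 112 and 195 CPM in MPP (-2.63 ± 0.27, edgeR adjusted p = 0.00136). Mfsd2b, the sphingosine-1-phosphate exporter of red cells and platelets, was at 140, 156, 166 and 207 CPM in HSC and at 6.43, 10.4, 1.06 and 7.22 CPM in MPP (-4.71 ± 0.52, adjusted p = 0.00248). Every HSC library of these genes was above every MPP library by more than 3-fold. Tuba8, an alpha-tubulin, fell from 84.4 ± 29 to 5.05 ± 1.37 CPM (-4.07 ± 0.35, adjusted p = 0.000466). The acetylcholinesterase gene Ache (-3.56 ± 0.42) and Reep2, which shapes the endoplasmic reticulum (-3.38 ± 0.37), fell to 3.05 ± 1.27 and 3.35 ± 0.874 CPM, with adjusted p of 0.00366 and 0.00222. Clu, the secreted chaperone clusterin, varied among HSC libraries (28.8, 61.6, 8.21 and 70.9 CPM) and stayed at 0.182 to 2.25 CPM in MPP (-5.62 ± 0.90, adjusted p = 0.0145). Pde10a, a cyclic nucleotide phosphodiesterase, had 779 counts in the 4 HSC libraries and 15 in the 4 MPP libraries (-5.75 ± 1.07, adjusted p = 0.0296). Clu passed in 6 and Pde10a in 2 of the 8 fits without 1 library.

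Lymphoid transcripts rose from HSC to MPP. Of 25 lymphoid priming genes 18 were tested, 17 had a fold change above 0, 6 rose, none fell, and the median was 1.13. Among all tested genes 51.4% had a fold change above 0 and 0.641% rose past the threshold. Flt3, the receptor tyrosine kinase that marks multipotent and lymphoid progenitors (chromosome 5, 147330741 to 147400489), was at 43.9, 35.8, 16.8 and 59 CPM in HSC and at 508, 542, 514 and 552 CPM in MPP. The 4 MPP libraries lay close together, and the log2 fold change was 3.77 ± 0.35, or 13.6-fold (edgeR adjusted p = 0.000655). Satb1, a chromatin organiser of lymphocytes, was at 2.59, 6.54, 9.03 and 8.02 CPM in HSC and at 43.8, 45.7, 128 and 70.5 CPM in MPP (3.46 ± 0.48, adjusted p = 0.00731). Ighm, the constant region of the IgM heavy chain, which progenitors transcribe before rearrangement, was at 13.5, 17.2, 13 and 16.6 CPM in HSC and at 116, 91, 97.7 and 298 CPM in MPP. The MPP library of mouse 4 was the highest for Ighm, and the groups did not overlap (3.32 ± 0.40, adjusted p = 0.00367). These 3 genes passed in all 8 fits without 1 library.

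Ltb, the membrane cytokine lymphotoxin beta, rose from 139 ± 27.5 to 378 ± 72.2 CPM (1.45 ± 0.22, edgeR adjusted p = 0.0115). Cd27, a receptor of the TNF receptor family (1.14 ± 0.21), and Ikzf1, the lymphoid factor Ikaros (1.36 ± 0.24), both had an adjusted p of 0.0251. Ltb passed in 6, and Cd27 and Ikzf1 each in 2, of the 8 fits without 1 library. Cd27 overlaps E130112N10Rik in the annotation. Dntt, the terminal transferase of early lymphocytes, was absent from HSC of mice 1 to 3 and at 3.61 CPM in mouse 4, and at 21.4, 29, 50.3 and 53.2 CPM in MPP. Its groups did not overlap and it did not pass (5.43 ± 1.33, adjusted p = 0.0747), though it did with the mouse as a block (adjusted p = 0.0289). The count of lymphoid genes that rose was 3 without the HSC library of mouse 1 or of mouse 2 and 9 without that of mouse 4. Markers of mature B and plasma cells, Ighm among them, summed to 46.9 to 64.1 CPM in HSC and 133 to 423 CPM in MPP, while Ms4a1, Pax5 and Ebf1, which define B cells, had no count in any of the 8 libraries. Markers of T and NK cells summed to 107 to 253 CPM in HSC and 112 to 192 CPM in MPP, with Cd3e, Cd8a, Cd8b1 and Ncr1 at 0.

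Cd34, Gfi1 and Il2rg rose as well, while most members of the lists that hold Gfi1 and Il2rg did not pass. Cd34, the sialomucin of progenitors (chromosome 1, 194938821 to 194961292), was at 339, 320, 345 and 401 CPM in HSC and at 1001, 947, 1514 and 985 CPM in MPP (1.66 ± 0.21, edgeR adjusted p = 0.0047). Gfi1, a zinc-finger repressor related to Gfi1b, went the opposite way to its relative, from 18, 17.4, 18.3 and 28 CPM in HSC to 105, 88.9, 51.7 and 104 CPM in MPP (2.10 ± 0.29, adjusted p = 0.00745). Il2rg, the gamma chain shared by interleukin receptors, rose from 119 ± 8.56 to 320 ± 71.4 CPM (1.43 ± 0.21, adjusted p = 0.0101). All 3 passed in every fit without 1 library. Cd34 overlaps Gm16897 in the annotation. Of 32 stem cell transcription factors, Hlf and Gfi1 rose, Gfi1b and Gata2 fell, and the median was 0.17. Hoxa9, a homeobox factor of stem and progenitor cells, was at 37.5 ± 5.11 CPM in HSC and 69.8 ± 13.2 CPM in MPP and did not pass (0.90 ± 0.23, adjusted p = 0.0821). Flt3 and Il2rg rose and Epor fell among 30 tested receptors for cytokines and growth factors, whose median was 0.49.

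Other genes with a low p or a wide rise had varied roles. P2ry14, a receptor for UDP-glucose, went from 19.1 ± 4.03 to 68.9 ± 13 CPM (1.85 ± 0.25, edgeR adjusted p = 0.00706). Its locus lies inside that of Med12l and also overlaps F630111L10Rik. P2ry10, a receptor for lysophospholipids, had 14 counts in the HSC libraries together and was at 18.4, 12, 18.6 and 18.7 CPM in MPP (6.47 ± 0.94, adjusted p = 0.0101). Emb, the membrane glycoprotein embigin, rose from 126 ± 24.9 to 505 ± 124 CPM (2.00 ± 0.24, adjusted p = 0.00366), and Slc16a11, of the monocarboxylate transporter family, from 4.44 ± 1.94 to 51 ± 15.3 CPM (3.53 ± 0.41, adjusted p = 0.00366). The transmembrane genes Shisa8 (1.85 ± 0.25) and Shisa5 (1.35 ± 0.20) had adjusted p of 0.00706 and 0.0101. These 6 genes passed in all 8 fits without 1 library. The WAP-domain genes Wfdc17 and Wfdc18 are neighbours with similar sequence, so the division of reads between them is uncertain. Wfdc17 was at 6.23, 9.06, 8.88 and 32.4 CPM in HSC and at 233, 145, 274 and 750 CPM in MPP, highest in mouse 4 in both (4.63 ± 0.67, adjusted p = 0.0101), and Wfdc18 rose by 5.04 ± 0.82 (adjusted p = 0.0153). Both passed in 7 of the 8 fits.

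Among the widest rises were also genes that rested on fewer fits. Itgb5, an integrin subunit, was at 0 to 2.67 CPM in HSC and at 45, 39.1, 17.9 and 59.3 CPM in MPP (4.56 ± 0.80, edgeR adjusted p = 0.0226). Ddx4, an RNA helicase known from germ cells, was at 11.9, 2.97, 2.01 and 2.24 CPM in HSC and at 43.3, 49, 143 and 30.6 CPM in MPP (3.78 ± 0.70, adjusted p = 0.0286). Epha7, an ephrin receptor, went from 0.654 ± 0.455 to 12 ± 4.54 CPM (4.16 ± 0.83, adjusted p = 0.0352, and 0.0693 with the mouse as a block). Itgb5 and Ddx4 each passed in 3 of the 8 fits without 1 library and Epha7 in 1. The chemokine genes Ccl3 and Ccl4 overlap in the annotation and rose together. Ccl3 was at 10.4, 5.68, 0.597 and 12.9 CPM in HSC and at 80.9, 96.8, 117 and 148 CPM in MPP (3.89 ± 0.65, adjusted p = 0.0177), and Ccl4 rose from 29.6 ± 7.64 to 93.6 ± 21 CPM (1.66 ± 0.26, adjusted p = 0.0136). Each passed in 6 of the 8 fits. With Itgb3, which fell, they were the members called among 30 tested chemokine and homing genes, median 0.29.

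**Figure D2:**
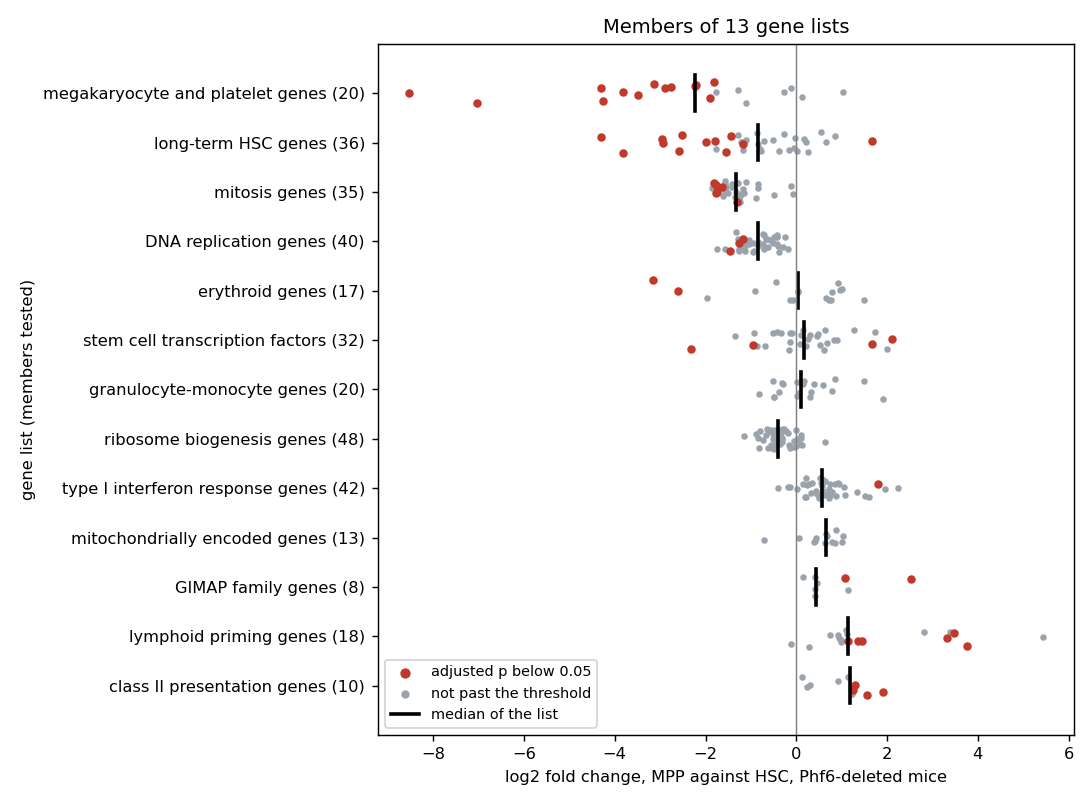
Log2 fold change, MPP against HSC in Phf6-deleted mice, of each tested member (point) of 13 gene lists, with red for an adjusted p below 0.05 and a black bar at the median of the list. Platelet genes lie far to the left with a median of -2.22, all mitosis and DNA replication genes lie left of 0, and lymphoid and class II genes lie to the right.

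Cell division genes were lower in MPP than in HSC of the deleted mice as far as their fold changes went, but few were called. All 35 mitosis genes had a fold change below 0, against 48.6% of all tested genes, with a median of -1.32. Of these, 6 fell past the threshold, against 0.771% of all tested genes. Cdca8, Aurkb and Incenp encode borealin, Aurora B kinase and the inner centromere protein, which act together in the chromosomal passenger complex. Cdca8 was at 144, 184, 207 and 78.3 CPM in HSC and at 61.4, 51.3, 44.7 and 26.4 CPM in MPP (-1.74 ± 0.34, edgeR adjusted p = 0.0336). Aurkb fell from 127 ± 47.6 to 37.3 ± 13.8 CPM (-1.76 ± 0.35, adjusted p = 0.0352) and Incenp from 101 ± 13.8 to 41 ± 13.7 CPM (-1.30 ± 0.27, adjusted p = 0.0388). Ube2c, the ubiquitin-conjugating enzyme of the anaphase-promoting complex (-1.80 ± 0.36), Plk1, the polo-like mitotic kinase (-1.64 ± 0.33), and Bub1b, a kinase of the spindle checkpoint (-1.76 ± 0.37), had adjusted p of 0.0352, 0.0362 and 0.0419.

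Mouse 4 was lower than the others in both populations. The mean log2(CPM + 1) of the mitosis genes was 6.79, 6.86, 6.78 and 5.85 in HSC and 5.62, 5.72, 5.35 and 4.31 in MPP, a difference of -1.18, -1.14, -1.42 and -1.54 within mice 1 to 4. With the mouse as a block, 25 of the 35 fell, beside 1.27% of all tested genes. None passed without the HSC library of mouse 1, 2 or 3 or the MPP library of mouse 1, 3 or 4, 1 passed without the MPP library of mouse 2, and 11 passed without the HSC library of mouse 4. DESeq2, which called 6.23% of all genes, called 24 of them lower.

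DNA replication genes showed the same direction with a smaller size. All 40 had a fold change below 0, with a median of -0.84, and 3 fell past the threshold, or 10 with the mouse as a block. Among all tested genes 0.771% fell, or 1.27% with the block. Chaf1a, the large subunit of chromatin assembly factor 1, was at 117, 91, 108 and 95.3 CPM in HSC and at 49, 44.2, 24.8 and 32.2 CPM in MPP (-1.45 ± 0.25, edgeR adjusted p = 0.0215). Rrm1, the large subunit of ribonucleotide reductase, was at 512, 525, 455 and 336 CPM in HSC and at 245, 231, 155 and 130 CPM in MPP (-1.26 ± 0.25, adjusted p = 0.0352). For both genes the lowest HSC library was above the highest MPP library. Fen1, the flap endonuclease of Okazaki fragment processing, fell from 156 ± 30.5 to 68.7 ± 17 CPM (-1.18 ± 0.24, adjusted p = 0.0362). In the annotation Chaf1a overlaps Ubxn6, Fen1 overlaps Tmem258 and E2f1, described next, overlaps Necab3. Mcm5, a subunit of the replicative helicase, did not pass, at -1.27 ± 0.28 (adjusted p = 0.0537), and E2f1, a factor that drives replication genes, fell from 116 ± 17.7 to 39.7 ± 15.5 CPM (-1.55 ± 0.30, adjusted p = 0.0315). E2f1 was the member called among 24 tested G1 cyclins, kinases and inhibitors, median -0.44. None of the 3 replication genes passed without the HSC library of mouse 1, 2 or 3 or the MPP library of mouse 2 or 4, and 1 and 2 members passed without the MPP library of mouse 1 and mouse 3. E2f1, Rrm1 and Fen1 passed in 1 and Chaf1a in 3 of the 8 fits.

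**Figure D3:**
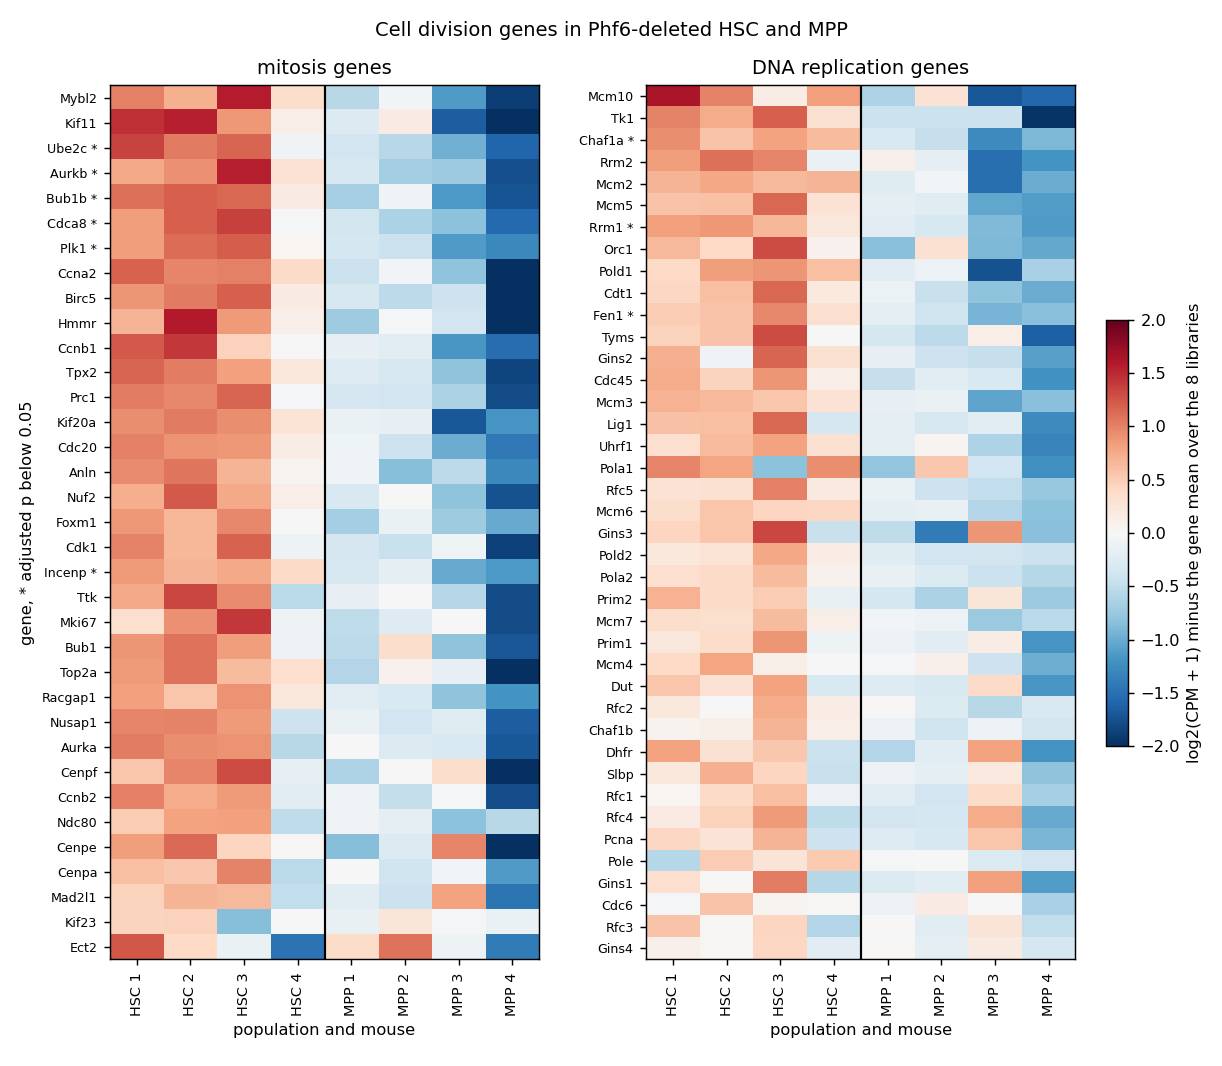
Each row is a mitosis gene (left panel) or DNA replication gene (right panel) and each column a library of the Phf6-deleted mice, coloured by log2(CPM + 1) minus the mean of the gene over the 8 libraries, with an asterisk for an adjusted p below 0.05. The 4 HSC columns are mostly red and the 4 MPP columns mostly blue, and the column of mouse 4 is the palest in HSC and the darkest blue in MPP for most mitosis genes.

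The promoters of the mitosis genes and those of the replication genes were searched for a different motif each. The cell cycle homology region TTTGAA, to which the DREAM and MuvB complexes bind in mitotic genes, was searched on both strands, and 23 of 31 promoters of 29 mitosis genes held it (74.2%, exact 95% interval 55.4% to 88.1%), against 17.9% of all promoters and 12.5% of promoters of tested genes. An E2F-type motif, TTTCCCGC, TTTCGCGC, TTTGCCGC or TTTGGCGC on either strand, was in 13 of 38 promoters of 32 replication genes (34.2%, 19.6% to 51.4%), against 2.26% of all promoters and 3.93% of those of tested genes. In the other group each motif was near its share in promoters of tested genes. The E2F-type motif was in 1 of 31 mitosis promoters (3.23%) and TTTGAA in 5 of 38 replication promoters (13.2%). Stretches of 30 bases around the match are shown for 3 of the mitosis genes that fell, with the match in capitals. As examples of the E2F-type motif, they are also shown for the 3 replication genes with such a motif and the lowest p. None of these 3 replication genes was called, and the called Chaf1a, Rrm1 and Fen1 are not among them. The first 3 are Plk1 (plus strand, chr7:122159453-122159482), Ube2c (plus, chr2:164769888-164769917) and Bub1b (plus, chr2:118598231-118598260). The others are Mcm5 (plus, chr8:75109345-75109374), Cdt1 (plus, chr8:122568035-122568064) and Mcm3 (minus, chr1:20820275-20820304).
Plk1: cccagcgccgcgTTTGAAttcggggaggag
Ube2c: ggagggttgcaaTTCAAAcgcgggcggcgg
Bub1b: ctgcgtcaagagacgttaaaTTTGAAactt
Mcm5: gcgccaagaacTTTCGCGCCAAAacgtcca
Cdt1: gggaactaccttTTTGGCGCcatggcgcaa
Mcm3: aaacttccgtgGCGGGAAAacttgggaagt
Ube2c and Mcm3 carry the motif on the opposite strand, in Mcm5 matches on both strands overlap, and 1 of the 2 matches of Mcm3 is shown. Cdt1, the licensing factor that loads the helicase, was at 109, 124, 182 and 93.3 CPM in HSC and 75.5, 59.5, 46.3 and 40.6 CPM in MPP and did not pass (-1.20 ± 0.28, edgeR adjusted p = 0.063). Mcm3, a helicase subunit, was at -1.05 ± 0.24 (adjusted p = 0.0631, and 0.0369 with the mouse as a block).

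Class II antigen presentation genes were higher in MPP. All 10 tested members had a fold change above 0, with a median of 1.18, and 4 rose. Among all tested genes 51.4% had a fold change above 0 and 0.641% rose past the threshold. H2-Aa, the alpha chain of I-A (chromosome 17, 34282744 to 34287823), was at 89.3, 76.1, 81.9 and 73.8 CPM in HSC and at 187, 160, 208 and 231 CPM in MPP (1.29 ± 0.19, edgeR adjusted p = 0.0106). Cd74, the invariant chain that escorts class II molecules, was at 171, 182, 166 and 179 CPM in HSC and at 521, 446, 326 and 776 CPM in MPP (1.57 ± 0.26, adjusted p = 0.0153). The HSC libraries were close to each other for both genes, and the MPP libraries were all above them. H2-Eb1, the beta chain of I-E, rose from 27.7 ± 6.03 to 66.2 ± 11.9 CPM (1.26 ± 0.25, adjusted p = 0.0336), and H2-Ob, the beta chain of the H2-O regulator of peptide loading, from 28.6 ± 8.96 to 108 ± 25.6 CPM (1.91 ± 0.29, adjusted p = 0.0115). None of the 4 passed without the HSC library of mouse 2, and 2 passed without that of mouse 1 or mouse 3 or without the MPP library of mouse 1. Class II genes are also expressed by B cells. The summed B and plasma cell markers moved the same way, from 46.9 to 64.1 CPM in HSC to 133 to 423 CPM in MPP, and like Cd74 they were highest in the MPP of mouse 4. Most of each MPP sum was Ighm, at 116, 91, 97.7 and 298 CPM in mice 1 to 4. The B cell genes Ms4a1, Pax5 and Ebf1 had no count in any of these libraries. The part of B cells in the class II result was not tested.

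Interferon response genes lay mostly higher in MPP without passing. Of 42 tested, 39 had a fold change above 0, against 51.4% of all tested genes, with a median of 0.57. The control mice showed this direction too, as given with their comparison. Rtp4, an interferon-induced chaperone of receptors, was the single member called, at 101, 95.4, 78.3 and 77.2 CPM in HSC and 268, 187, 514 and 258 CPM in MPP (1.80 ± 0.30, edgeR adjusted p = 0.0165, past the threshold in 5 of the 8 fits without 1 library). Ifit3, an interferon-induced antiviral protein, was at 6.02 ± 2.47 CPM in HSC and 18.4 ± 6.69 CPM in MPP and did not pass (1.61 ± 0.43, adjusted p = 0.0972, and 0.044 with the mouse as a block). The GIMAP family of immune GTPases had 8 of 8 members above 0, median 0.44, and Gimap6 (1.08 ± 0.20, adjusted p = 0.0296) and Gimap7 (2.53 ± 0.48, adjusted p = 0.0302) rose, each in 2 of the 8 fits.

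Signalling and metabolic lists moved little as groups. Among 22 tested TGF-beta and BMP genes, median 0.31, Tgif1, a corepressor of SMAD proteins, rose from 47 ± 11.6 to 152 ± 63.7 CPM (1.70 ± 0.30, edgeR adjusted p = 0.0247) and the coreceptor Tgfbr3 fell from 109 ± 30.6 to 34.1 ± 8.82 CPM (-1.68 ± 0.27, adjusted p = 0.0145). Each passed in 5 of the 8 fits without 1 library. Ldha, lactate dehydrogenase A, was at 1364, 1116, 1311 and 1122 CPM in HSC and at 680, 545, 560 and 544 CPM in MPP (-1.08 ± 0.18, adjusted p = 0.0161, past the threshold in 3 of the 8). It was the member called among 20 glycolysis genes, whose median was -0.08. Dusp2, a phosphatase of MAP kinases, rose from 99.2 ± 14.9 to 190 ± 23.6 CPM (0.94 ± 0.20, adjusted p = 0.0418, past the threshold in 1 of the 8) and was the member called among 19 immediate early genes, median 0.29.

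In 14 of the 33 lists edgeR called no member. These held 338 tested members, of which 29 had an unadjusted p under 0.05 (8.58%, against 14.4% of all tested genes). DESeq2 called 16 of them (4.73%, against 6.23% of all) and limma-voom 3 (0.888%, against 1.95%). The medians were 0.11 for granulocyte-monocyte genes, -0.41 for ribosome biogenesis (41 of 48 below 0), -0.11 for cytosolic ribosomal proteins, -0.20 for nuclear oxidative phosphorylation, -0.03 for imprinted growth genes, 0.56 for the Notch pathway, 0.23 for p53 targets, -0.50 for fetal stem cell genes and 0.07 for the NuRD complex. The 13 mitochondrially encoded genes had a median of 0.66, and their summed level was 33783, 16592, 13725 and 31144 CPM in HSC and 23733, 30986, 56336 and 12390 CPM in MPP. They were thus higher in MPP in mice 2 and 3 and lower in mice 1 and 4. Neutrophil and monocyte markers, whose GR1-bearing cells were depleted, summed to 1383 to 11006 CPM in HSC and 1370 to 13719 CPM in MPP, highest in mouse 4 in both, with a median fold change of -0.46. Mature red cell markers summed to 926 to 1570 CPM in HSC and 1229 to 1558 CPM in MPP, and endothelial and stromal markers to 31.6 to 96.7 CPM and 53 to 69.9 CPM, with Cdh5 at 0 in all 8 libraries.

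The same comparison in the 4 control mice shares no library with the one above. There, 553 of 13636 tested genes were higher in MPP (4.06%) and 652 lower (4.78%), or 8.84% together. With the mouse as a block, 1008 were higher (7.39%) and 1101 lower (8.07%), or 15.5% together. Of the 196 genes called in deleted mice, 193 were tested in controls and all 193 had the same direction there, against 72.1% of all genes tested in both. Their median absolute log2 fold change was 1.76 in deleted mice, where they were chosen, and 1.36 in controls. The genes called in both were 168, which is 85.7% of the calls in deleted mice and 13.9% of those in controls. Of 1188 control calls tested in deleted mice, 1164 (98.0%) had the same sign, with a median absolute log2 fold change of 0.95 in controls and 0.95 in deleted mice. The median SE over the 13437 genes tested in both was 0.33 in deleted mice and 0.20 in controls. Across these genes the fold changes correlated with r = 0.68, a description, since genes are not independent. In controls 14 of 20 platelet genes, 32 of 35 mitosis genes and 26 of 40 replication genes fell, 9 of 19 lymphoid genes rose, and 1 of 10 class II genes rose. Of 36 long-term HSC genes 21 fell and 2 rose there, median -0.83. All 10 class II genes were above 0, median 0.50. So were 39 of 42 interferon response genes, median 0.37, with 9 called higher and 1 lower. The mean log2(CPM + 1) of the class II list rose by 0.558, 0.719, 0.579 and 0.690 in control mice 1 to 4. In deleted mice 1 to 4 it rose by 1.06, 1.12, 0.362 and 1.27.

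**Figure D4:**
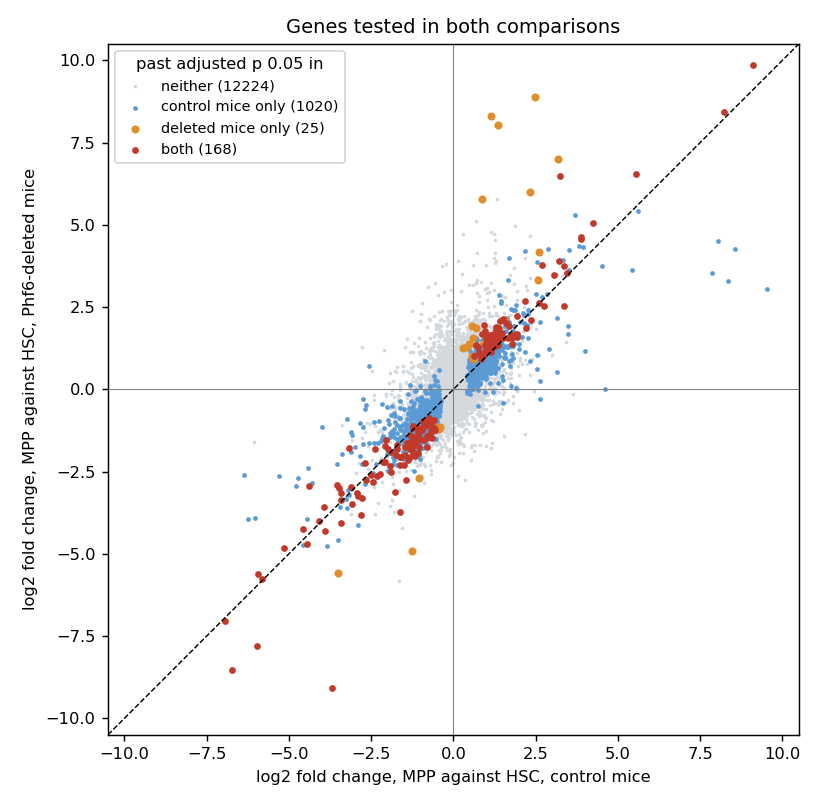
Log2 fold change of MPP against HSC in control mice (horizontal axis) and in Phf6-deleted mice (vertical axis), 1 point for each of 13437 genes, coloured by where the adjusted p was below 0.05, with the line of equality dashed. The 168 genes called in both lie in the lower left and upper right quadrants, and so do most of the 1020 called in controls alone.

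Whether the change from HSC to MPP itself differed between deleted and control mice was tested over all 16 libraries. No gene of 14561 passed in either direction (0%, edgeR), 417 had an unadjusted p under 0.05, limma-voom called none, and DESeq2 called 5 (0.0262%), with Akr1c14, Foxq1 and Maneal higher and Dsc2 and Gpr85 lower. The 3 genes with the lowest p were at the edge of detection. Maneal, a homologue of an endomannosidase, had no count in deleted HSC and was at 1.77, 2.43, 1.44 and 1.89 CPM in deleted MPP, against 1.34, 0.352, 1.65 and 1.63 CPM in control HSC and 2.49, 3.53, 4.26 and 2.51 CPM in control MPP (unadjusted p = 6.72e-05, adjusted p = 0.978). Flt4, the receptor VEGFR3, had no count in control HSC, 0.157 to 2.37 CPM in control MPP, 0.684 to 4.03 CPM in deleted HSC and 0.658 to 3.83 CPM in deleted MPP (unadjusted p = 0.000456). Foxq1, a forkhead factor, was at 0 in deleted HSC, 0 to 1.67 CPM in deleted MPP, 0.612 to 2.84 CPM in control HSC and 0 to 0.437 CPM in control MPP (unadjusted p = 0.000493). Maneal overlaps Yrdc in the annotation.

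Of the 196 genes called in deleted mice, 35 had an unadjusted p under 0.05 for the difference, against 2.86% of all genes tested for it, and none passed after adjustment. The 196 were chosen by the deleted libraries, which also enter the difference. That choice by itself favours low p, so the 2 shares cannot be set against each other as a result. The 25 genes called in deleted mice and tested but not called in controls held 15 of these 35, a share that their choice by those calls favours. The difference was above 0 for 12 of the 15 and below 0 for 3. Lowest in p after Maneal were Scube3 (edgeR unadjusted p = 0.000778), Wnt5b (0.00133) and Gcsam (0.00172), named after their values were seen. All were at no more than 0.151 CPM in deleted HSC and 5.52 CPM in deleted MPP. Wnt5b overlaps Fbxl14 in the annotation, which had 6284 counts in the 8 deleted libraries. The class II list held 3 of the 15, and 12 were outside it. H2-Aa in controls was at 80.5, 33.6, 47.1 and 48.5 CPM in HSC and at 85.6, 44.3, 79.2 and 71.9 CPM in MPP, where the groups overlap, and its change was larger in deleted mice by 0.88 ± 0.34 (SE, edgeR unadjusted p = 0.0172). For Cd74 the difference between the changes was 0.98 ± 0.34 (unadjusted p = 0.0105) and for H2-Eb1 0.99 ± 0.37 (unadjusted p = 0.0166), while H2-Ob, which also rose in controls (1.68 ± 0.18), was at 0.24 ± 0.34 (unadjusted p = 0.489). Itga2b was at 68.7, 70, 66.7 and 75.4 CPM in control MPP, above the 21.7 to 39.6 CPM of deleted MPP (difference -0.99 ± 0.28, unadjusted p = 0.00259). For P2ry10 the difference was 3.21 ± 1.17 (unadjusted p = 0.0133), with 0 to 2.72 CPM in control HSC. None of these passed the adjusted threshold.

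**Figure D5:**
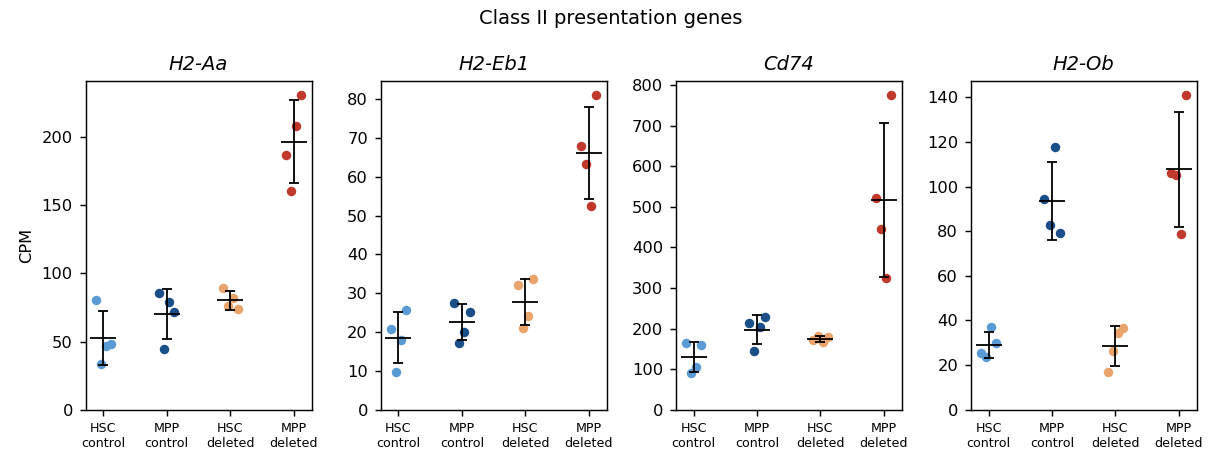
CPM of 4 class II presentation genes in each library (points) of control and Phf6-deleted HSC and MPP, with the mean and SD of the 4 libraries in black, scaled within the 8 libraries of each genotype. Deleted MPP lie above the other 3 groups for H2-Aa, H2-Eb1 and Cd74, and for H2-Ob both MPP groups lie above both HSC groups.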

How the data were processed

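Poly(A) RNA of sorted cells was sequenced as paired reads of 80 bp, per the labels' protocols. The authors deposited raw counts for each gene as whole numbers; the submitters' processing notes name bcl2fastq, featureCounts and mm10. Which aligner, annotation and strand setting they used is not given in the sources used here. The 24 sample files were identical to the table of the series. Of 27179 Entrez identifiers, 25275 were named from RefSeq (GRCm38.p6), 18 from GENCODE and 1886 were left unnamed but tested.

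Counts of the 4 HSC and 4 MPP libraries of deleted mice were fitted with edgeR 4.0.16 in R 4.3.3 (TMM, default expression filter with a count of 10 and 15 in total, robust quasi-likelihood test, Benjamini-Hochberg adjustment, threshold 0.05). The control mice were fitted alike, and an interaction contrast over 16 libraries tested the difference. An SE is the fold change divided by the square root of F. The fit was run on simulated counts with the same dispersion for every gene and no outlying library. That is a simpler case than these data, so it does not show how the fit performs on them. DESeq2 1.42.0, limma-voom (limma 3.58.1), other scalings and filters, a mouse block and left-out libraries were alternatives; the GATA-type motif was added after seeing the data. No 2 libraries of a group agreed within sampling noise (chi-square per degree of freedom 35.3 to 234).

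Members and the 33 lists were chosen with earlier results of these data known. Named genes are Phf6, the sort markers, the 12 lowest p and 8 largest folds (at least 10 CPM in the higher group, libraries apart) in each direction, up to 6 called and 2 uncalled members per list, and the 3 lowest p of the difference; provisional symbols were counted, not ranked. Gp1ba, Cdt1 and Mcm3 were named after their promoters were seen, and Scube3, Wnt5b, Gcsam and the 5 DESeq2 calls after their values; Mecom, Fgd5, Hoxb5 and Mllt3 are named as HSC markers, of which 1 more is not reported here. The labels give HSC and MPP of 1 number the same mouse, so the numbers pair the libraries; deviations of such libraries from the group means correlated at 0.0178, 0.117, 0.216 and 0.376, and those of different mice at -0.304 to 0.1.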

Additional observations from a re-analysis of the deposited data

Results flagged for a closer look

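Single libraries stood apart from the other 3 of their group in some genes named above, by a gap that exceeded Dixon's critical value for 4 samples. Chance alone gives this in about 1 in 20 groups. Among deleted HSC, mouse 4 was apart with 28 CPM of Gfi1, 32.4 CPM of Wfdc17, 3.61 CPM of Dntt, 45.1 CPM of Hoxa9 and 84.2 CPM of Bub1b, of which the last is the lowest of its group and the others the highest. Mouse 1 was apart in HSC with 314 CPM of Itga2b, the lowest, and 11.9 CPM of Ddx4, the highest. Among deleted MPP, mouse 3 was the highest with 1514 CPM of Cd34, 143 CPM of Ddx4 and 248 CPM of Tgif1. Mouse 4 was the highest in MPP with 298 CPM of Ighm, mouse 1 with 680 CPM of Ldha, while mouse 2 was the lowest with 12 CPM of P2ry10 and mouse 3 with 33.7 CPM of Fgd5.

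The mean log2(CPM + 1) of the p53 target genes moved by 0.082, 0.0872, 0.0201 and 0.147 from HSC to MPP in deleted mice 1 to 4, a mean of 0.0841, and by -0.0356, -0.255, -0.0388 and -0.00939 in the control mice. Every deleted mouse thus went up and every control mouse down, by small amounts, and the difference of these means was not tested. Of 23 members tested singly for the difference, 0 had an edgeR unadjusted p under 0.05 (lowest 0.0604). Other lists kept the genotypes apart too. Ribosome biogenesis genes moved by -0.352, -0.298, -0.481 and -0.325 in deleted mice and by -0.104, -0.196, -0.173 and -0.151 in controls. Stem cell transcription factors moved by 0.0316 to 0.385 and by -0.155 to 0.00683.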

How the results depend on the processing

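Counts of called genes changed with the test more than with the scaling or filter. In deleted mice edgeR called 89 higher and 107 lower, DESeq2 479 and 474, and edgeR with the spread shared over 16 libraries 551 and 506; the replicate block by mouse raised the lower count to 177. Without 1 library the counts ran from 21 to 105 higher and from 33 to 103 lower. Without both libraries of a mouse and with the block they were 26 and 45 (mouse 1), 5 and 8 (mouse 2), 229 and 293 (mouse 3) and 6 and 8 (mouse 4). In control mice the block gave 1008 and 1101, DESeq2 gave 858 higher, and counts without 1 library ran from 377 to 669 higher and 455 to 669 lower. For the difference between the changes DESeq2 called 3 higher and 2 lower, where edgeR called 0. Of 73 named genes past the threshold, 66 stayed past it under every other scaling, filter, test and block. The block kept 69 and ended the call of Epha7, Maneal, Gcsam and Wnt5b. That of Slamf1 ended with limma-voom. None of the 73 changed direction.

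The fold change of Phf6, near 0, turned positive with limma-voom (0.039), the block (0.021), the shared spread (0.0014), without MPP of mouse 1 (0.046) or mouse 3 (0.037), without HSC of mouse 4 (0.20), and without mouse 3 (0.090) or mouse 4 (0.20); without 1 library it ran from -0.18 to 0.20. That of Kit turned positive without MPP of mouse 3 (0.015) or HSC of mouse 4 (0.045), with a range of -0.29 to 0.045 without 1 library. Flt4 turned positive without HSC of mouse 1 (0.042), mouse 1 (0.35) or mouse 3 (0.17), with a range of -0.83 to 0.042 without 1 library. Fgd5 turned positive with limma-voom (0.090), the block (0.071), without mouse 2 (0.15) or mouse 4 (0.31), and without HSC of mouse 2 (0.028) or mouse 4 (0.30) or MPP of mouse 3 (0.095); Mllt3 turned negative without mouse 3 (-0.091), HSC of mouse 1 (-0.035) or mouse 3 (-0.10) or MPP of mouse 4 (-0.066). The cause of these changes was not tested, apart from the fewer samples of the fits that leave some out. In the shorter window, from 100 bases before to 50 after the start, 23.7% of replication promoters held the E2F-type motif. Genes with few counts, such as those listed at 0 in HSC, have no interpretable fold at this depth.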

Other observations

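Of the 196 genes called between HSC and MPP of deleted mice, 136 belonged to none of the 33 lists, and 7 carried provisional symbols. Among the called genes, 6 had no count in any of the 4 HSC libraries and 1 had none in the 4 MPP libraries. The smallest log2 difference that passed was 0.88 in size.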
